A study of Mus musculus with 10 samples.

Results

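The core loop of the circadian clock is formed here by 10 genes, Arntl (also called Bmal1), Clock, Npas2, Per1, Per2, Per3, Cry1, Cry2, Nr1d1 and Nr1d2, and their RNA was followed in the adrenal glands of individual mice. Members were chosen by name, by a rule that used no measured values, though earlier results of these data were known. Each was read from the probe that the annotation pairs with that symbol alone. This left 9 of the 10, of 19661 genes with such a probe and 25664 probes tested in all, each of the 9 with exactly 1 probe. Npas2 had none and has no value below.

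Whole adrenal RNA of 5 Crem knockout (KO) mice and 5 wild type (WT) mice was hybridised to Affymetrix arrays, 1 array per mouse. KO mice carry a disrupted gene for CREM, the cAMP responsive element modulator, in the whole animal. Animals of both genotypes came from a mixed background, labelled 129Pas x C57Bl/J, were 8 weeks old and untreated, and were killed when the lights came on, at 0 h of circadian time; sex was not given. One time of day was sampled, so levels describe a single phase and neither amplitude nor phase of a rhythm was measured.

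The clock is a transcriptional feedback loop. ARNTL pairs with CLOCK, or with its relative NPAS2, binds E-box sequences and switches on the Per and Cry genes, whose proteins return to the nucleus and repress the same pair. A second loop runs through the nuclear receptors REV-ERB alpha and beta (Nr1d1 and Nr1d2), which are switched on by ARNTL and CLOCK and repress Arntl through elements they share with the ROR receptors. Cyclic AMP response elements (CREs), the sequences CREB and CREM bind, are known inputs of the clock, and Per1 is induced through one. In the adrenal cortex the clock gates the response to ACTH and the daily rise of corticosterone.

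Promoter sequences were available from RefSeq (GRCm38.p6) for 9 of the 10 genes, with 13 start sites between them, and exact matches to 6 short motifs were searched on both strands from 250 bases before to 50 after each start. The 250 bases before the start are printed for 6 members whose promoters held the most matches or the motifs the loop is built on, in the sense of the gene, with matches in capitals and every base position counted from the start. Per1 is shown from the first of its starts, at chr11:69098699-69098948 (plus strand). Cry1 lies at chr10:85185055-85185304, Cry2 at chr2:92434070-92434319, Per3 at chr4:151044666-151044915, Nr1d1 at chr11:98775378-98775627 and Nr1d2 at chr14:18239107-18239356, all on the minus strand.
Per1: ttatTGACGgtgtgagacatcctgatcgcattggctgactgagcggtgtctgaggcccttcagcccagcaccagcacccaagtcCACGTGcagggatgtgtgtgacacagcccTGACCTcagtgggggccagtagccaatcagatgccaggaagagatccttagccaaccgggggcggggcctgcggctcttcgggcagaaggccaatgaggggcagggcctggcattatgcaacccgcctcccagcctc
Cry1: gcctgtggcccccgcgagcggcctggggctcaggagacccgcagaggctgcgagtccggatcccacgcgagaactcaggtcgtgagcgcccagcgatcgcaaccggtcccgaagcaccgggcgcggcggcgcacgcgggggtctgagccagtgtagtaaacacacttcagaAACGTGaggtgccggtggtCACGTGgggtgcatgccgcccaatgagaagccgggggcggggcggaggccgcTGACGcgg
Cry2: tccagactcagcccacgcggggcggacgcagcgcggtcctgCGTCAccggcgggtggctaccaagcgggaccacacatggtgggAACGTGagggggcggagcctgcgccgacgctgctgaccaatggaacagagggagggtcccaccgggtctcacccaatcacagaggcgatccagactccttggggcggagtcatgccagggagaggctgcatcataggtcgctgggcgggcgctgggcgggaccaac
Per3: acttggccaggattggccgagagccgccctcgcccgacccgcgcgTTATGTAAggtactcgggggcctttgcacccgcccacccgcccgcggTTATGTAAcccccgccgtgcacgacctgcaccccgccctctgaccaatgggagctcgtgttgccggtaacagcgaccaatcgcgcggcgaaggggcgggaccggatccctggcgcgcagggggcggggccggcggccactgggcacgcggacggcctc
Nr1d1: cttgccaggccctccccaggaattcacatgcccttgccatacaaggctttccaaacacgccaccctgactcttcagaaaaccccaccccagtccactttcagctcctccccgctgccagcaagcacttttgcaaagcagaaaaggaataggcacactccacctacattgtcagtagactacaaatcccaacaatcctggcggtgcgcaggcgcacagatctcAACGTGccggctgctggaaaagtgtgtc
Nr1d2: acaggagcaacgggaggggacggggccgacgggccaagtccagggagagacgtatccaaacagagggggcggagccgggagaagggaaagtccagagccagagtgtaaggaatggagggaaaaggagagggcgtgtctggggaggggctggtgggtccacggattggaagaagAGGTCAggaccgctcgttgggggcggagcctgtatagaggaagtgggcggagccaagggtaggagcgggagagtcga

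The canonical E-box CACGTG was found in Per1 (at -166) and Cry1 (at -60), against 7.15% of all 32851 promoters in the table. The variant E-box CACGTT was found in Cry1 (-79), Cry2 (-166) and Nr1d1 (-28), each on the other strand, and in 4.68% of all promoters. The full CRE, TGACGTCA, was in 0 of the 13 member windows and 1.79% of all promoters, whereas its core TGACG, which every full CRE contains, was in 20.8% of all promoters and in those of Cry1 (-8), Cry2 (-209) and both starts of Per1 (-246 and -132). Of the 9 genes searched, which do not include Per2, Per3 alone had the D-box TTATGTAA, the site of DBP and its relatives, which it held at -205 and -158 and which occurred in 0.938% of all promoters. The REV-ERB and ROR core AGGTCA was in 16.3% of all promoters and in windows of Nr1d2 (-77), Per1 (-137), 1 start of Clock (-119) and 1 start of Arntl, where it lay after the start (at 32). Npas2 held none of the 6 motifs.

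All values are RMA levels on the log2 scale, in which 1 unit is a doubling, and are listed in the order of arrays 1 to 5 of a genotype; differences are KO minus WT from a limma fit over all probes with 95% confidence intervals (CI). Levels of different probes cannot be set against each other. The arrays carried 4 labelled batches: batch 1 held KO 1, KO 2 and WT 1, batch 2 held KO 3 and KO 4, batch 3 held KO 5 and WT 2 to WT 4, and batch 4 held WT 5, so genotypes could be compared within batches 1 and 3 only, each of which has 1 array of one genotype. The Crem probe read 7.38, 7.97, 6.86, 6.84 and 7.77 in KO and 7.45, 7.23, 8.14, 7.62 and 7.27 in WT; the genotypes overlapped, where the probe lies relative to the disrupted part was not stated, and KO and WT therefore refer to the labels. The mean of 6 adrenal cortex genes lay between 12.42 and 12.98 in KO and between 12.88 and 13.06 in WT. Among them Cyp11b1, the last enzyme of corticosterone synthesis, lay between 13.50 and 14.10 in KO and between 13.94 and 14.07 in WT. Nr5a1 differed most, at -0.47 (CI -0.85 to -0.09, limma adjusted p = 0.999), with 4 of 5 KO arrays below the lowest WT array. Star followed at -0.30 (CI -0.63 to 0.03), and Cyp21a1 differed least, at -0.07 (CI -0.29 to 0.15).

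Arrays differed in tissue make-up and along a shared axis. The mean level of 6 adipocyte genes was 12.81 in KO 1 and 12.79 in KO 3, against 8.67 to 9.95 in the other 3 KO arrays and 9.27 to 11.46 in WT. Ucp1, the brown fat uncoupling protein, read 12.16 in KO 1 and 12.64 in KO 3. It was also high in WT 1 (11.74) and WT 3 (10.54), and the next highest array was WT 5 at 9.17. The mean of the 4 measured liver genes spanned 6.78 to 13.45 in KO, highest in KO 1, and 7.03 to 8.74 in WT, and the mean of the 5 measured chromaffin genes spanned 8.68 to 13.09 in KO, lowest in KO 1, and 12.19 to 13.10 in WT. Arrays KO 2, KO 5 and WT 3 stood apart on the first principal component, which held 53.8% of the variance, with scores of 69.4, 61.0 and 60.7 against 17.4 at most elsewhere.

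No clock loop gene passed an adjusted p of 0.05 between KO and WT (0 of 9), and neither did any other probe (0 of 25664, or 0% called). The genotypes overlapped for all 9 members, as against 0.717% of all genes whose KO and WT arrays did not overlap. At an unadjusted p under 0.05 stood 1 member, Per2, lower in KO, beside 3.42% of all probes (878) and 2.5% of all probes (641) that were so in the lower direction. The member differences had a median of -0.09 with 7 lower and 2 higher in KO, while the median over all genes was -0.01 with 53.2% lower. In whole tissue fewer cells of a type and less RNA per cell cannot be told apart.

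**Figure D1:**
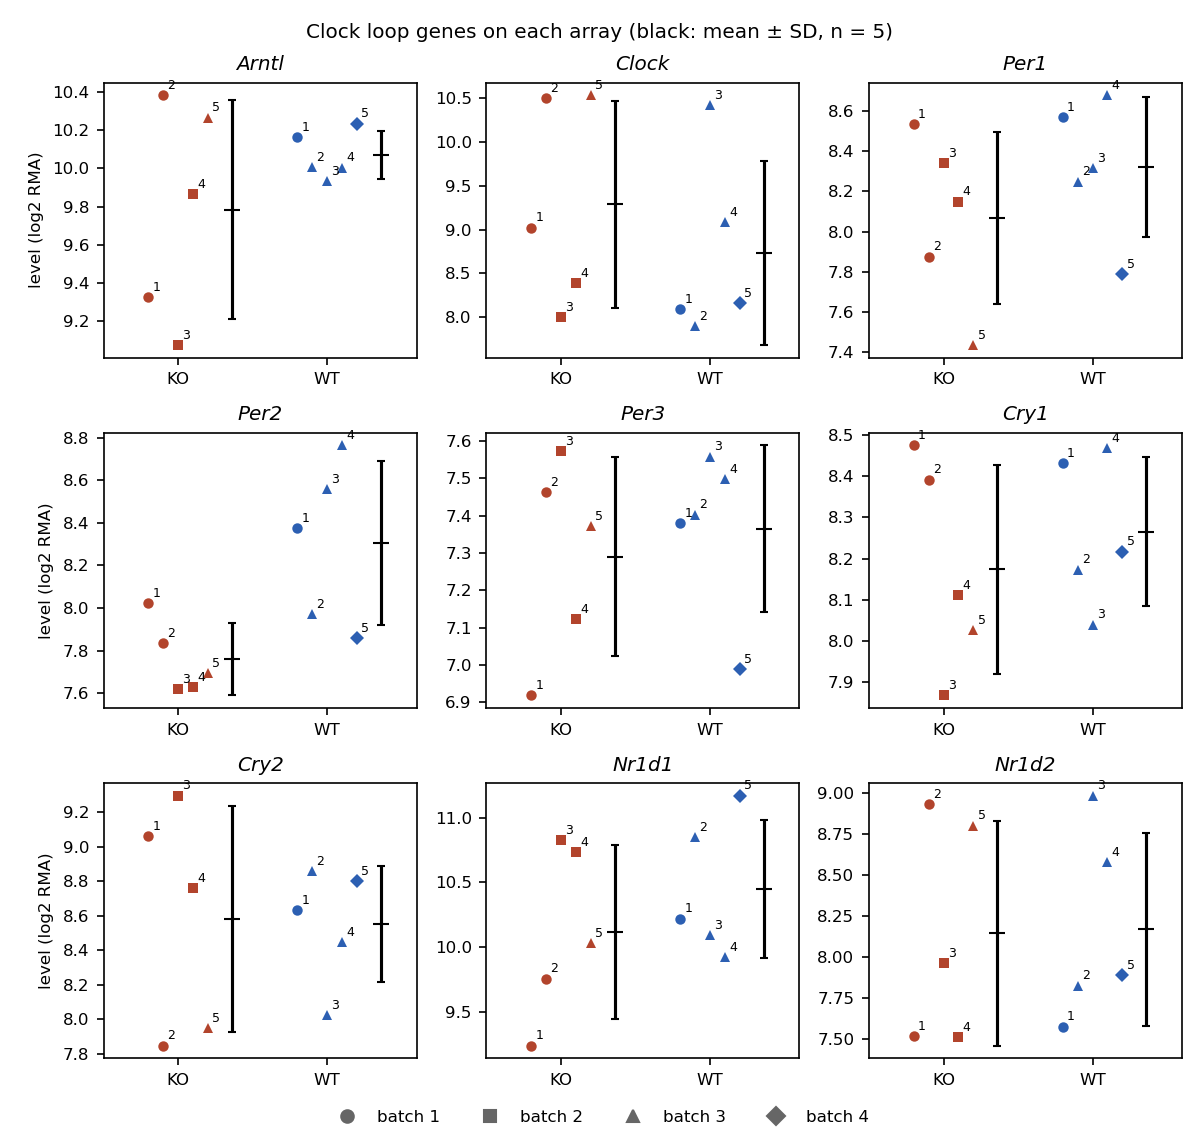
Level (log2 RMA) of each measured clock loop gene on each array, KO left and WT right, with the array number beside each point, the batch as its shape and mean ± SD (n = 5) in black; vertical axes do not start at 0. KO and WT overlap in every panel, and in Per2 4 of 5 KO arrays lie below the lowest WT array.

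Of the activators, Arntl (probe 10556463), the DNA-binding partner without which the loop does not run, read 9.33, 10.38, 9.08, 9.86 and 10.27 in KO and 10.16, 10.01, 9.93, 10.004 and 10.23 in WT. The WT arrays lay within a narrow band, while 3 KO arrays fell below it and 2 reached above it. Arntl averaged 9.78 ± 0.57 in KO and 10.07 ± 0.13 in WT (± SD over 5 arrays each), a difference of -0.29 (CI -0.82 to 0.25, limma adjusted p = 0.999). The lowest arrays, KO 1 and KO 3, are those richest in adipocyte transcripts. Without them the difference turned to 0.10, and without KO 2, KO 5 and WT 3 it was -0.68 (unadjusted p = 0.00603, limma adjusted p = 0.352). Leaving out single arrays gave -0.44 (without KO 2) to -0.11 (without KO 3). With batch as a block it was 0.0052 (CI -0.75 to 0.76); batch 1 alone gave -0.31 and batch 3 alone 0.28. Over the 10 arrays Arntl followed the mean of the cortex genes (r = 0.88). It opposed the means of the liver (r = -0.79) and adipocyte genes (r = -0.69). These r describe the same arrays and were not computed without KO 1 and KO 3. Those arrays, lowest in Arntl, were also lowest in the cortex mean (12.42 and 12.50). WT 1, with the highest adipocyte mean of the other arrays (11.46), read 10.16 in Arntl. The part of tissue make-up in the Arntl levels was not tested.

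Clock (probe 10530733), the histone acetyltransferase partner of ARNTL, read 9.02, 10.50, 8.00, 8.39 and 10.53 in KO and 8.10, 7.90, 10.42, 9.09 and 8.16 in WT. It was the most variable member: KO 2, KO 5 and WT 3 stood over 1 unit above all other arrays, and the SD within genotype was larger than that of 98.0% of probes. Clock averaged 9.29 ± 1.18 in KO and 8.73 ± 1.05 in WT (± SD over 5 arrays each), a difference of 0.56 (CI -0.82 to 1.93, limma adjusted p = 0.999). The difference was 0.25 without KO 2, 0.25 without KO 5, 0.98 without WT 3 and between these with any other array left out, and 0.16 without all 3. With batch as a block the difference was 1.52 (CI 0.01 to 3.04, unadjusted p = 0.0493, limma adjusted p = 0.582), and batch 1 alone gave 1.66 and batch 3 alone 1.40, where KO 2 and KO 5 were the high KO arrays.

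Of the PERIOD repressors, Per1 (probe 10377439), whose promoter carries the E-box and 1 CRE core printed above, read 8.53, 7.88, 8.34, 8.15 and 7.44 in KO and 8.57, 8.25, 8.32, 8.68 and 7.79 in WT. Arrays of both genotypes covered most of the same range, and the lowest were KO 5 and WT 5. Per1 averaged 8.07 ± 0.43 in KO and 8.32 ± 0.35 in WT (± SD over 5 arrays each), a difference of -0.25 (CI -0.76 to 0.25, limma adjusted p = 0.999). Leaving out single arrays gave -0.39 (without WT 5) to -0.10 (without KO 5). With batch as a block it was -0.69 (CI -1.24 to -0.14, unadjusted p = 0.0198, limma adjusted p = 0.582), while batch 1 alone gave -0.37 and batch 3 alone -0.98, and without KO 2, KO 5 and WT 3 it was 0.020.

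Per2 (probe 10356601), a PERIOD gene whose mutation disturbs the daily rhythm of mice, read 8.02, 7.84, 7.62, 7.63 and 7.70 in KO and 8.38, 7.97, 8.56, 8.76 and 7.86 in WT. Every KO array was below the WT mean and 4 of 5 were below the lowest WT array, WT 5; KO 1 alone reached into the WT range. Per2 averaged 7.76 ± 0.17 in KO and 8.31 ± 0.38 in WT (± SD over 5 arrays each), 0.685 of the WT level (CI 0.521 to 0.901) or -0.55 on the log2 scale (SE 0.18, CI -0.94 to -0.15). The unadjusted p of 0.0114 ranked 165th among 25664 probes and the limma adjusted p was 0.999, so the difference did not hold up over all probes.

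The Per2 difference was of like size under each batch treatment, at -0.60 with batch as a block (limma adjusted p = 0.582), -0.45 in batch 1 alone and -0.74 in batch 3 alone. It lay between -0.66 and -0.43 when any single array was left out, each time at a limma unadjusted p under 0.05. Without KO 1 and KO 3 it was -0.59. Without KO 2, KO 5 and WT 3 it was -0.49 (limma unadjusted p = 0.0655), and with array weights -0.43 (limma unadjusted p = 0.0621). Over the 10 arrays the r of Per2 was 0.50 with the mean of 2 zona glomerulosa genes and 0.34 with the cortex mean. It was 0.27 with the mean of 4 endothelium genes and 0.04 with the chromaffin mean. With the adipocyte mean it was -0.00 and with the liver mean -0.03. These r describe the same arrays, and the part of tissue make-up in the Per2 levels was not tested. Per2 was lower in KO in every fit run and was not called after adjustment in any.

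Per3 (probe 10518781), a PERIOD relative that is dispensable for the rhythm in mice, read 6.92, 7.46, 7.57, 7.12 and 7.37 in KO and 7.38, 7.40, 7.56, 7.50 and 6.99 in WT. Its arrays spread over less than 1 unit, with 1 low array in each genotype, KO 1 and WT 5. The difference was -0.08 (CI -0.41 to 0.26, limma adjusted p = 0.999), which leaves room for a change of up to 0.751 or 1.20 times the WT level.

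Of the CRYPTOCHROME repressors, Cry1 (probe 10371400), with an E-box and a variant E-box close together in the sequence above, read 8.48, 8.39, 7.87, 8.11 and 8.03 in KO and 8.43, 8.17, 8.04, 8.47 and 8.22 in WT. It had the smallest spread of the members, and the genotypes interleaved. The difference was -0.09 (CI -0.40 to 0.22, limma adjusted p = 0.999).

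Cry2 (probe 10485170) read 9.06, 7.85, 9.30, 8.76 and 7.95 in KO and 8.63, 8.86, 8.02, 8.45 and 8.80 in WT. The 3 lowest arrays were KO 2, KO 5 and WT 3, the reverse of Clock, and the 2 highest were KO 1 and KO 3. The difference was 0.03 (CI -0.63 to 0.69, limma adjusted p = 0.999), and its sign was not stable: it was -0.35 with batch as a block and -0.37 without KO 1 and KO 3.

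Of the nuclear receptors, Nr1d1 (probe 10390691), the haem-binding repressor of Arntl, read 9.24, 9.75, 10.83, 10.73 and 10.03 in KO and 10.22, 10.85, 10.09, 9.92 and 11.17 in WT. The levels of single mice ran over nearly 2 units, KO 1 lowest and WT 5 highest, and its SD within genotype exceeded that of 89.4% of probes. Nr1d1 averaged 10.12 ± 0.67 in KO and 10.45 ± 0.53 in WT (± SD over 5 arrays each), a difference of -0.33 (CI -1.09 to 0.43, limma adjusted p = 0.999). It was -0.11 without KO 1, -0.15 without WT 5 and -0.51 without KO 3. The array with the lowest Nr1d1, KO 1, was also the one lowest in chromaffin and highest in liver transcripts.

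Nr1d2 (probe 10417734), the related receptor, read 7.52, 8.93, 7.96, 7.51 and 8.80 in KO and 7.58, 7.83, 8.98, 8.58 and 7.89 in WT. Its high arrays were KO 2, KO 5, WT 3 and, somewhat lower, WT 4. Over the 10 arrays the r of Nr1d2 was 0.85 with Clock and -0.31 with Nr1d1. Without KO 2, KO 5 and WT 3 these were 0.31 and 0.03. The difference was -0.03 (CI -0.82 to 0.77, limma adjusted p = 0.999) and turned to 0.48 with batch as a block, and to 0.65 in batch 1 alone and 0.34 in batch 3 alone.

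**Figure D2:**
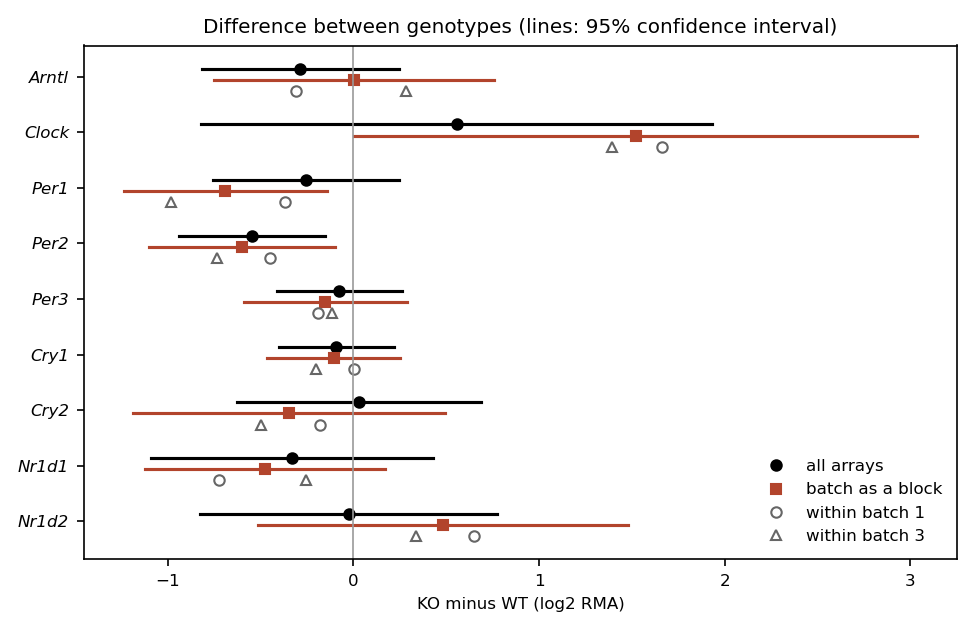
Difference KO minus WT (log2 RMA) of each measured clock loop gene with its 95% confidence interval, from all arrays (black circles) and with batch as a block (red squares), and within batches 1 and 3 (open symbols, no interval drawn). The Per2 symbols all lie left of 0, as do those of Per1, Per3 and Nr1d1, those of Clock lie right of 0, and those of Arntl, Cry1, Cry2 and Nr1d2 fall on both sides.

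Clock, Nr1d2 and Cry2 shared one pattern over the mice, carried largely by KO 2, KO 5 and WT 3. Over the other 7 arrays r was 0.31 for Clock with Nr1d2, against 0.85 over all 10. For Cry2 it was -0.31 with Clock and -0.36 with Nr1d2, against -0.88 and -0.84. KO 2, KO 5 and WT 3 held the 3 highest Clock levels, 10.42 to 10.53 against at most 9.09 elsewhere, and the 3 highest Nr1d2 levels, 8.80 to 8.98 against at most 8.58. The same arrays held the 3 lowest Cry2 levels, 7.85 to 8.02 against at least 8.45. The pattern was a common one: it held with those arrays highest for 12.2% of all genes (2400) and with those arrays lowest for 18.1% (3558), and these are the arrays apart on the first component, which was computed from the same values. The absolute correlation with that component stood at percentile 96.6 of all genes for Cry2, 93.7 for Clock and 91.1 for Nr1d2, against 44.5 for Arntl and lower values for the other 5. These arrays hold KO and WT mice from batches 1 and 3, and what sets them apart was not tested.

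**Figure D3:**
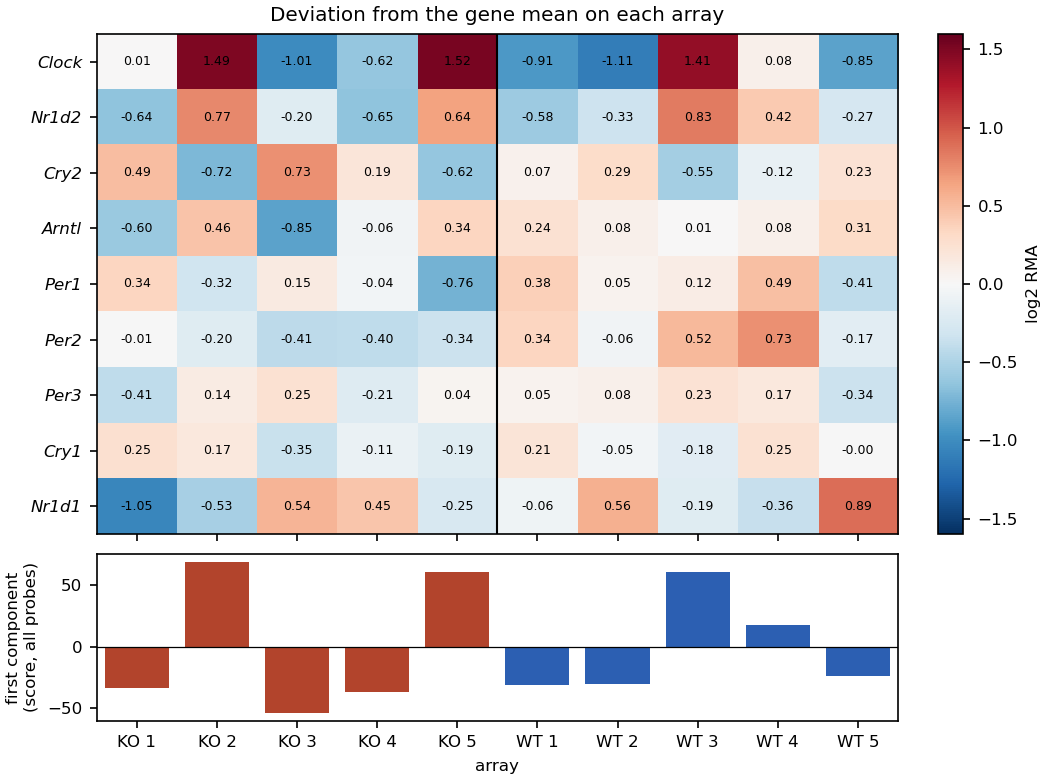
Deviation of each measured clock loop gene from its mean over the 10 arrays (log2 RMA, colour and number) with KO arrays left of the line and WT arrays right, above the score of each array on the first principal component of all probes. Clock and Nr1d2 are high and Cry2 is low in KO 2, KO 5 and WT 3, the arrays with scores of 60.7 and above, and Nr1d1 is highest in WT 5 and lowest in KO 1.

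Whether members varied together from mouse to mouse was asked by regressing every other probe on the level of an anchor gene, with genotype in the fit. Against Arntl 0 of 8 members and 0% of 25663 probes passed an adjusted p of 0.05, and 18.7% of probes (4810) had an unadjusted p under 0.05. Cry2 came nearest (partial r = -0.78, unadjusted p = 0.00481, limma adjusted p = 0.119) and Per1 followed (partial r = -0.70, unadjusted p = 0.0200, limma adjusted p = 0.202). For Cry2 the sign differed between genotypes: its r with Arntl was -0.97 in KO alone and 0.65 in WT alone. Without KO 1 and KO 3, the arrays farthest from the Arntl median, partial r was -0.36 for Cry2 and -0.53 for Per1 (limma adjusted p = 0.896 each). Without WT 3, Cry2 passed (limma adjusted p = 0.0320), together with 1326 probes in all. Arntl and Nr1d1, its repressor, showed a partial r of -0.08 (limma adjusted p = 0.904).

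Against Nr1d1 again 0 of 8 members and 0% of 25663 probes passed, and 16.9% of probes (4330) had an unadjusted p under 0.05. Per2 came nearest: at a given genotype it was lower where Nr1d1 was higher, with a slope of -0.42 ± 0.10 (SE), a partial r of -0.86 and an unadjusted p of 0.00237 (limma adjusted p = 0.210). Without genotype in the fit the correlation was -0.36. Within KO the order of the 5 mice by Per2 was the exact reverse of their order by Nr1d1, and so it was within WT: KO 1 and WT 4 were lowest in Nr1d1 and highest in Per2, and KO 3 and WT 5 the opposite, except that KO 3 and KO 4 differed in Per2 by only 0.01. Without KO 1 Per2 passed (limma adjusted p = 0.0456), as did Cry2 and Clock, but so did 3133 probes. Cry1 had a partial r of -0.68 (limma adjusted p = 0.291) and Clock one of -0.59 (limma adjusted p = 0.300).

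With the Nr1d1 level of each array added to the genotype comparison, a fit chosen after these values were seen, the KO minus WT difference of Per2 was -0.69 (SE 0.12, unadjusted p = 0.000187). That p was the smallest of 25663 probes, yet the limma adjusted p stayed at 0.9997 and 0 probes passed, so no call was made. Nr1d1 was added because Per2 followed it closely within genotype on these same arrays, which by itself lowers the p of Per2. The rank therefore carries no weight.

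**Figure D4:**
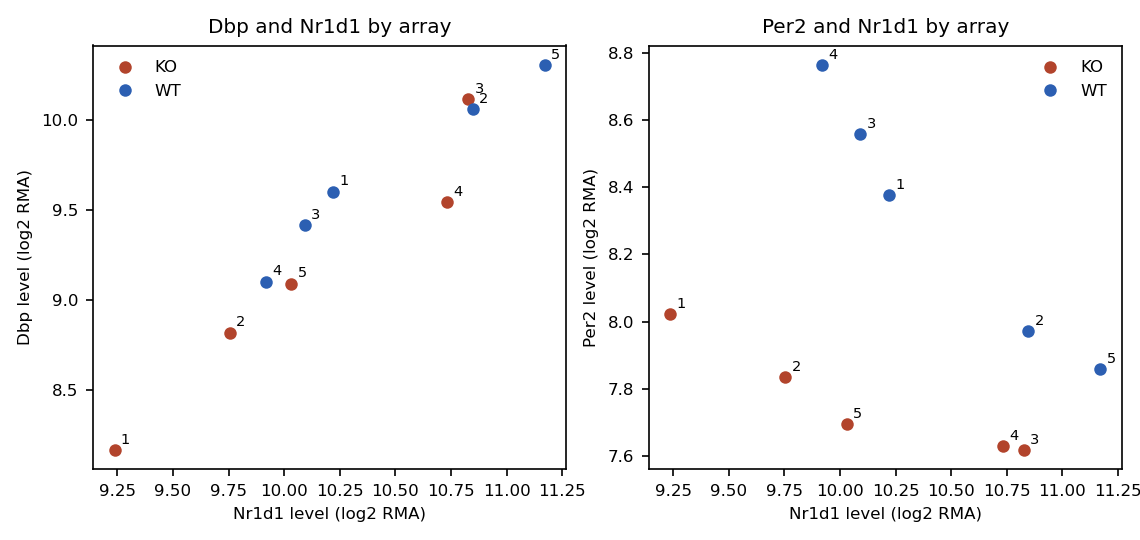
Levels (log2 RMA) of Dbp (left panel) and Per2 (right panel) against the Nr1d1 level, 1 point per array with its number, KO red and WT blue. Dbp lies along one rising band in both genotypes, and Per2 falls with Nr1d1 within each genotype, the KO arrays below the WT arrays of like Nr1d1 level.

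Of all genes, those whose levels were most like Nr1d1 over the 10 arrays were Eef2k (r = 0.97), Dbp (0.96), Nprl3 (0.95), Ercc2 (0.94) and Olfr263 (0.94), and those most opposed were Tnfrsf11b (-0.95), BC018473 (-0.93), Frg2f1 (-0.91), Olfr320 (-0.90) and Nfe2l3 (-0.90). Dbp, the D-box activator and a known output of ARNTL and CLOCK, ranked 2nd of 19660 genes. It read 8.16, 8.82, 10.12, 9.55 and 9.09 in KO and 9.60, 10.06, 9.42, 9.10 and 10.31 in WT, again lowest in KO 1 and highest in WT 5. Its r with Nr1d1 was 0.96 over the 7 arrays other than KO 2, KO 5 and WT 3, and 0.94 without KO 1 and KO 3. For Arntl the nearest genes were Glt8d1 (0.98), Rab28 (0.97), Rufy1 (0.96), Atp6v1c1 (0.96) and Gtf2b (0.95), none of them a clock gene, and the most opposed were Olfr220 (-0.96), Dcst1 (-0.95), Wdr93 (-0.95), Nos3 (-0.95) and 1700037H04Rik (-0.95). Without KO 1 and KO 3 those with Arntl ran from 0.68 (Atp6v1c1) to 0.88 (Glt8d1) and from -0.91 (Olfr220) to -0.57 (1700037H04Rik). Those with Nr1d1 were then at least 0.90 and at most -0.82. In KO alone those with Arntl were at least 0.96 and at most -0.96. In WT alone they ran from -0.0001 (Atp6v1c1) to 0.85 (Glt8d1) for the nearest genes. For the most opposed genes they ran in WT alone from -0.82 (Olfr220) to 0.69 (Nos3). These correlations describe 10 arrays that differed in tissue make-up. They were not tested, and neither was the part of tissue make-up in them.

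Among 18 further clock factors (output factors, nuclear receptors, casein kinases, ubiquitin ligases and others), 0 passed an adjusted p of 0.05. Their median difference was -0.25, with 12 lower (66.7%, against 53.2% of all genes, whose median was -0.01) and 6 higher in KO, and 2 stood at an unadjusted p under 0.05 (against 3.42% of all probes). These were Fbxw11 (-0.51, CI -0.82 to -0.20, unadjusted p = 0.00405) and Btrc (-0.30, CI -0.60 to -0.00, unadjusted p = 0.0495), the beta-TrCP ligases that mark PER proteins for destruction. The casein kinases that phosphorylate PER proteins for those ligases came next, Csnk1d at -0.28 (CI -0.57 to 0.01) and Csnk1e at -0.26 (CI -0.62 to 0.10). None of the 4 passed (limma adjusted p = 0.999 each).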

How the data were processed

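The authors deposited log2 expression values of whole adrenal RNA on Affymetrix arrays, 1 per mouse. RMA (background correction, quantile normalisation and summary over the probes of a set) is the method in the submitters' processing notes; neither its version nor a treatment of batches is given in the sources used here. Of 35557 probes, 25689 had values, 25 of them were treated as array controls and left out, and 25664 were tested. RMA gives no detection call; precision is limited by the number of arrays.

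The genotypes were compared by limma 3.58.1 under R 4.3.3 (two-sided, genotype only), with Benjamini-Hochberg adjustment over all probes and a threshold of 0.05. A gene was read from its single-symbol probe with the highest mean. Regressions on Arntl and on Nr1d1 had genotype as covariate. Alternatives were batch as a fixed or random block (consensus correlation 0.172), single batches, 2 normalisations, probe filters, eBayes and array weights, a threshold of 0.01, and arrays left out. Scripts were tested on simulated data. Figures were drawn with matplotlib 3.10.9.

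Members and lists were chosen with earlier results of these data known, although the rule for members went by gene name and used no measured values. Named were all members, Crem, the 4 further clock factors with the smallest unadjusted p, the 5 most and 5 least similar genes to Arntl and to Nr1d1, and cell type markers; Dbp was described further after its values were seen. Protein sequences were not analysed here.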

Additional observations from a re-analysis of the deposited data

How the results depend on the processing

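No probe and no member passed the adjusted threshold between KO and WT in any limma fit run, at 0.05 or 0.01, and 6 or 7 members were lower in KO when single arrays were left out. The number of probes at an unadjusted p under 0.05, 878 over all arrays, was 1843 with batch as a fixed block, 224 within batch 1, 264 within batch 3, 402 among the brighter probes alone, 1666 with array weights, 3126 without KO 2, KO 5 and WT 3, and between 503 (without WT 5) and 1462 (without KO 4) with single arrays left out. The number of members at that level, 1 (Per2), was 3 with batch as a fixed block (Per1, Per2 and Clock) and 0 with array weights. Without KO 2, KO 5 and WT 3 it was again 1, but that member was Arntl and not Per2. Fits within a batch hold 3 or 4 arrays, and the lone array of a genotype is assumed to vary like the others.

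The differences of Per2, Clock and Nr1d1 kept their sign in every fit run. Per1 turned to 0.020 without KO 2, KO 5 and WT 3, and Cry1 to 0.0017 within batch 1. Arntl turned to 0.0052 with batch as a fixed block, 0.28 within batch 3 and 0.10 without KO 1 and KO 3. Cry2 turned to -0.35 with batch as a fixed and -0.068 as a random block, -0.18 and -0.50 within batches 1 and 3, -0.014 with array weights and -0.37 without KO 1 and KO 3. Nr1d2 turned to 0.48, 0.11, 0.65, 0.34, 0.089 and 0.24 in the same fits. With single arrays left out the differences ran from -0.17 to 0.017 for Per3 (above 0 without KO 1), -0.15 to 0.21 for Cry2 and -0.22 to 0.18 for Nr1d2.

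Against Arntl 706 probes passed with no covariate, 354 with genotype and batch, and 0 to 1326 with single arrays left out (1326 without WT 3 and 233 without WT 1); members ran from 0 to 1, Cry2 without WT 3. Against Nr1d1 1 probe passed with no covariate, 6155 without WT 5 and KO 1, the 2 arrays farthest from the Nr1d1 median, and 0 to 3133 with single arrays left out (3133 without KO 1). Of the members 3 passed without WT 5 and KO 1 (Cry2, Clock and Nr1d2) and 0 to 3 with single arrays left out (Per2, Cry2 and Clock without KO 1). Apart from what fewer arrays imply, the cause was not tested. Averaging several probes of a gene was not run, because each member has 1 probe. No paired analysis was possible because the numbers of the mice do not pair KO with WT.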
